A study of Mus musculus with 10 samples.

Results

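Trimethylation of lysine 27 on histone H3 (H3K27me3) was compared between newborn mouse retina lacking Casz1 and control retina. The members are the 2 H3K27me3 chromatin immunoprecipitation libraries of the 10 samples in the series, chosen by their labelled antibody, 1 control and 1 Casz1 conditional knockout (cKO). Casz1 is a zinc finger transcription factor of mid- and late-stage retinal progenitors that affects the choice between rods, earlier-born neurons and Müller glia. H3K27me3 is written by Polycomb repressive complex 2 and read by Polycomb repressive complex 1, and it covers silent developmental genes in domains that run from a narrow patch at a CpG-rich gene start to whole homeobox clusters. In the retina, genes of the fates a cell has not taken commonly carry it. Acetylation of the same residue (H3K27ac), found at active starts and enhancers, cannot sit on the same histone tail as the methyl mark, but both can be called at 1 place when cells of a tissue differ.

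Both libraries came from dissected retina of C57BL/6 mice at postnatal day 0, and both used the same H3K27me3 antibody. The labels give the control genotype as wild type and the other as Casz1 cKO, while the peak names call them Cre-negative and Cre-positive. The cKO tissue was peripheral retina picked by its fluorescence. None of the sources used here gives the position of the control tissue, the Cre driver, the deleted part of Casz1 or the number of mice, and peripheral position and genotype cannot be told apart. Cre lines for peripheral retina have been built from Pax6 regulatory sequence, and at Pax6 a change on the endogenous gene and reads from such a transgene, if it was used, cannot be told apart. With 1 library in each group no test is possible, and every difference below is a difference between these 2 libraries. The files list called peaks without height or read count, so a level here is a number of covered bases (bp), depth is unknown, and fewer marked cells and less mark per cell cannot be told apart.

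The 250 bases upstream of 6 gene starts show, at single promoters, the kinds of difference that recur below. They were chosen after their values were seen and come from RefSeq (GRCm38.p6, the mm10 build of the peak files). They are read 5′ to 3′ on the gene's strand, and each CG, the dinucleotide that DNA methylation and CpG islands turn on, is in capitals. Hoxd9, a homeobox gene at chr2:74697513-74697762 on the plus strand, was covered over all 250 bases in both libraries, as was the first listed start of Pax6 at chr2:105668646-105668895 (plus), the master eye-field gene. Kcnj10, the inward rectifier potassium channel of Müller glia, at chr1:172340960-172341209 (plus), held the left edge of a start peak: 142 of the 250 bases were covered in control and all 250 in cKO. At P4ha2, a collagen prolyl hydroxylase subunit, at chr11:54100674-54100923 (plus), the edge moved out further, from 0 to 248 bases. Cntn5, a neuronal adhesion molecule at chr9:10904776-10905025 (minus), had 0 bases in control and 250 in cKO and no other control peak in its window. The reverse held at Cxcl10, a chemokine gene at chr5:92348890-92349139 (minus), with 250 bases in control and 0 in cKO, since the control peak crossed the start and the cKO peak lay inside the gene.
Hoxd9: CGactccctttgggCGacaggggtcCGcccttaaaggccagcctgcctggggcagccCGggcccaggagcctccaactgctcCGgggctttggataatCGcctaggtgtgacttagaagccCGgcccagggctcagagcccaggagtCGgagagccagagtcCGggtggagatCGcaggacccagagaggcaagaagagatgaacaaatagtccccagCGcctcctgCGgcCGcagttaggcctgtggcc
Pax6, first listed start: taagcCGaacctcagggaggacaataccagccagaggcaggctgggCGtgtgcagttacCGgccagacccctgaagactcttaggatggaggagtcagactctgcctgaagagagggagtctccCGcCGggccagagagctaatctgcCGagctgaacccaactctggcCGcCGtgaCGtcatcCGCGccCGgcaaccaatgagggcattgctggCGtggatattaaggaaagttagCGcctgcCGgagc
Kcnj10: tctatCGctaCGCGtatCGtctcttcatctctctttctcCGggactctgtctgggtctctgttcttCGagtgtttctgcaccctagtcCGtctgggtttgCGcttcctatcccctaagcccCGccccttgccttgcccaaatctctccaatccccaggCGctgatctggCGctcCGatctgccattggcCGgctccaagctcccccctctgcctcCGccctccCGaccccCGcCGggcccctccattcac
P4ha2: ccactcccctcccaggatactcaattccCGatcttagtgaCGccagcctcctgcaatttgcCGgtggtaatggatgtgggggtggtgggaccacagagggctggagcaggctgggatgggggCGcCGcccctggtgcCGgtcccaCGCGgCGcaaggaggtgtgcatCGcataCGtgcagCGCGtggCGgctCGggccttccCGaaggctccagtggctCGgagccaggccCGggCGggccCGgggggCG
Cntn5: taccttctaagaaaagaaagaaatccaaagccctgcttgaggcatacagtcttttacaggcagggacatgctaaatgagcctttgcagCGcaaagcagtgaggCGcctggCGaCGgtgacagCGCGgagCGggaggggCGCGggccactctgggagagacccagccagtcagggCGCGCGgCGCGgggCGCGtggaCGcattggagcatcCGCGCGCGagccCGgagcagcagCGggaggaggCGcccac
Cxcl10: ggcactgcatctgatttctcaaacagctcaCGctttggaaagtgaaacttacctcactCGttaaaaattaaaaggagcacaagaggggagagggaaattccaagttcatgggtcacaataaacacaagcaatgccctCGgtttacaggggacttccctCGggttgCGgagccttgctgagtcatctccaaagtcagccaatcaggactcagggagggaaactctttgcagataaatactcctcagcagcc
CG, searched as those letters alone and the same on both strands, occurs 13 times in the Hoxd9 stretch, 15 times in that of Pax6, 17 in Kcnj10, 21 in P4ha2, 24 in Cntn5 and 5 in Cxcl10. Over the 20085 listed starts of 16457 protein-coding genes on chromosomes 1 to 19, 51.3% of such stretches held 10 or more.

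The 2 libraries covered nearly the same amount of the genome. On chromosomes 1 to 19 the control list held 69708 peaks over 71.6 Mb and the cKO list 67849 peaks over 70.2 Mb, a difference of -1.94%. Of the bases covered in either list, 58.1 of 83.6 Mb were covered in both, which is 81.2% of the control bases and 82.8% of the cKO bases. Control alone covered 13.5 Mb and cKO alone 12.1 Mb. Single chromosomes ranged from -3.05% (chromosome 17) to 0.538% (chromosome 12), and chromosomes 3, 12 and 16 had more covered bases in cKO. For H3K27ac, measured with 1 library from each genotype, the same difference was -6.86% and the shared part was 0.655 of the union, against 0.695 for H3K27me3. Whether the 2 marks differ in this could not be tested.

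Peaks present in 1 list were nearly all narrow. In control, 25409 of 69708 peaks (36.5%) did not touch a cKO peak by even 1 bp, with an exact 95% interval, for counting error alone, of 36.1 to 36.8%. In cKO, 22772 peaks (33.6%, interval 33.2 to 33.9%) did not touch a control peak. Their median widths were 195 and 189 bp, against 505 and 475 bp for peaks that met one. Below 200 bp, 67.3% of control and 62.7% of cKO peaks stood alone. At 200 to 500 bp the shares were 41.8% and 37.3%, at 500 to 1000 bp 9.27% and 7.70%, and at 1000 to 2000 bp 0.528% and 0.513%. No control peak of 2000 bp or more and 2 cKO peaks of that width stood alone, the widest at 2333 bp, in the region near Peli1 described further on. Peaks of 5000 bp or more, 2801 in control and 2749 in cKO, held 42.2% and 42.6% of the covered bases, and each of them met a peak of the other library. Whether the narrow peaks in 1 list came from depth or from the calling threshold was not tested.

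**Figure D1:**
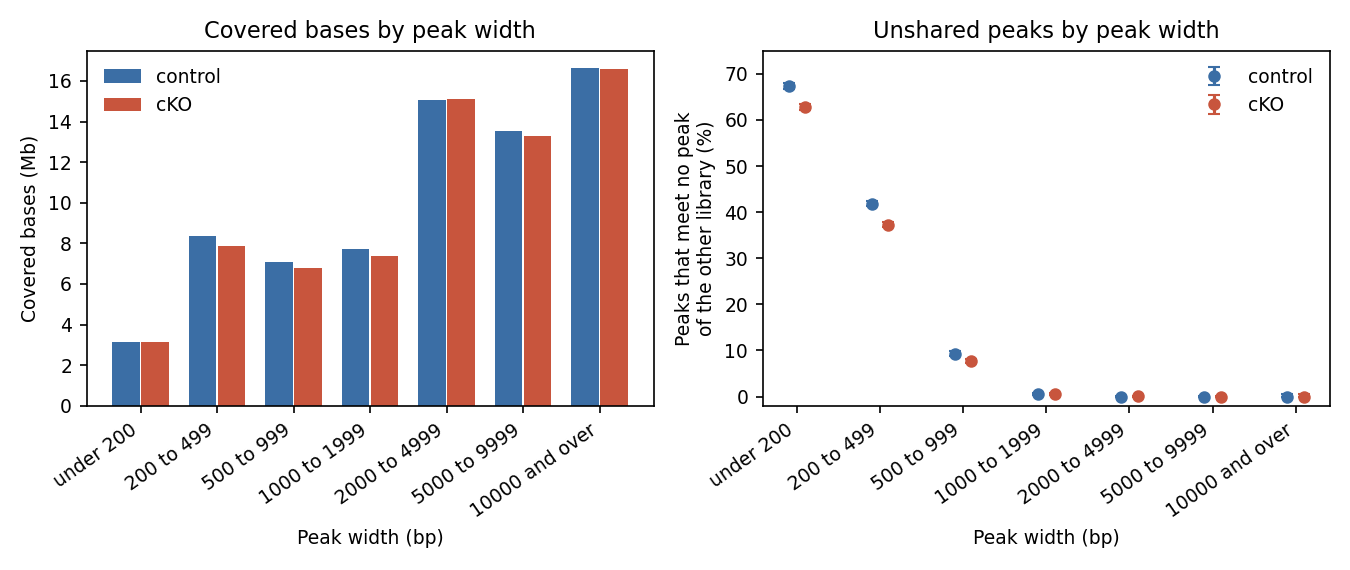
Share of peaks (%) in each library that overlap no peak of the other, by peak width in bp (blue, control; red, Casz1 cKO; the bars are exact 95% intervals that cover counting error only). The share falls from 67.3% and 62.7% under 200 bp to 0 at 5000 bp and over.

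Where a peak had a single counterpart, its edges lay close by. Among 24477 such pairs the median edge moved by 103 bp, which is under the labelled shearing length of about 300 bp, and 49.2% of edges lay within 100 bp. The median outward shift in cKO was -4 bp, so the edges had no common direction. In cKO, 47.1% of these peaks were wider and 52.6% narrower. Both edges had moved out in 4718 pairs and in for 5405, while 14146 pairs had slid, with both edges moving the same way along the chromosome. Other peaks were cut differently: 7727 control peaks held 2 or more cKO peaks, and 7235 cKO peaks held 2 or more control peaks.

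Each run of bases covered in 1 library alone was called an edge where the other library's bases touched it on 1 side, a gap where they touched both sides, and a separate peak otherwise. Edges and separate peaks made up most of the difference. In control-only bases, edges made up 39.8%, filled gaps 15.98%, separate peaks inside a domain that both libraries marked 36.2%, and whole domains absent from the other library 7.94%. The cKO-only bases divided into 40.8%, 16.5%, 35.7% and 7.03% in the same order. Median runs were short in all 4 forms, 108, 190, 199 and 179 bp in control and 103, 192, 192 and 175 bp in cKO. The widest edge was 1420 bp in control, beside Gas2l2, and 1779 bp in cKO, inside Cdh23, which encodes a hair-cell and photoreceptor cadherin.

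Domains were made by stitching peaks of both lists that lay within 3 kb, which gave 24368. Of these, 16803 held peaks of both libraries, 4192 of control alone (17.2% of all) and 3373 of cKO alone (13.8%). The one-library domains were small, with medians of 191 and 186 covered bp, and together held 1.07 and 0.849 Mb. Only 26 control-only and 35 cKO-only domains held 1 kb or more of covered bases, of 11183 domains of that size. Past the fold, here and below, means at least 1.5-fold and at least 500 bp apart. Among the 13903 shared domains with 500 bp or more, 1110 (7.98%) were past the fold lower in cKO and 846 (6.09%) higher.

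The wider the domain, the larger the part the 2 libraries shared. From domains under 1 kb to those of 50 kb and over, the shared part of the covered bases was 16.97, 37.5, 55.6, 66.6, 71.8, 79.5 and 86.1% in successive span classes. The change in covered bases was -13.1% under 1 kb, where a single peak decides presence, and between -5.12% and -1.19% in the wider classes. All 172 domains of 50 kb and over were in both libraries, with cKO-to-control ratios from 0.745 to 1.11. Of these, 120 had fewer and 52 more covered bases in cKO, and none was past the fold. Of the 833 domains of 20 to 50 kb, 6 were past the fold lower and 3 higher. Within the 3031 shared domains of 10 kb or more, the outer 10% of the span at each end was the least shared. Of the bases covered there in either library, 22.0% were covered in control alone and 18.8% in cKO alone. At 40 to 50% of the span these shares of the covered bases were 7.78% and 7.24%. The ends are set by whichever list reaches further, so part of that excess is built in.

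**Figure D2:**
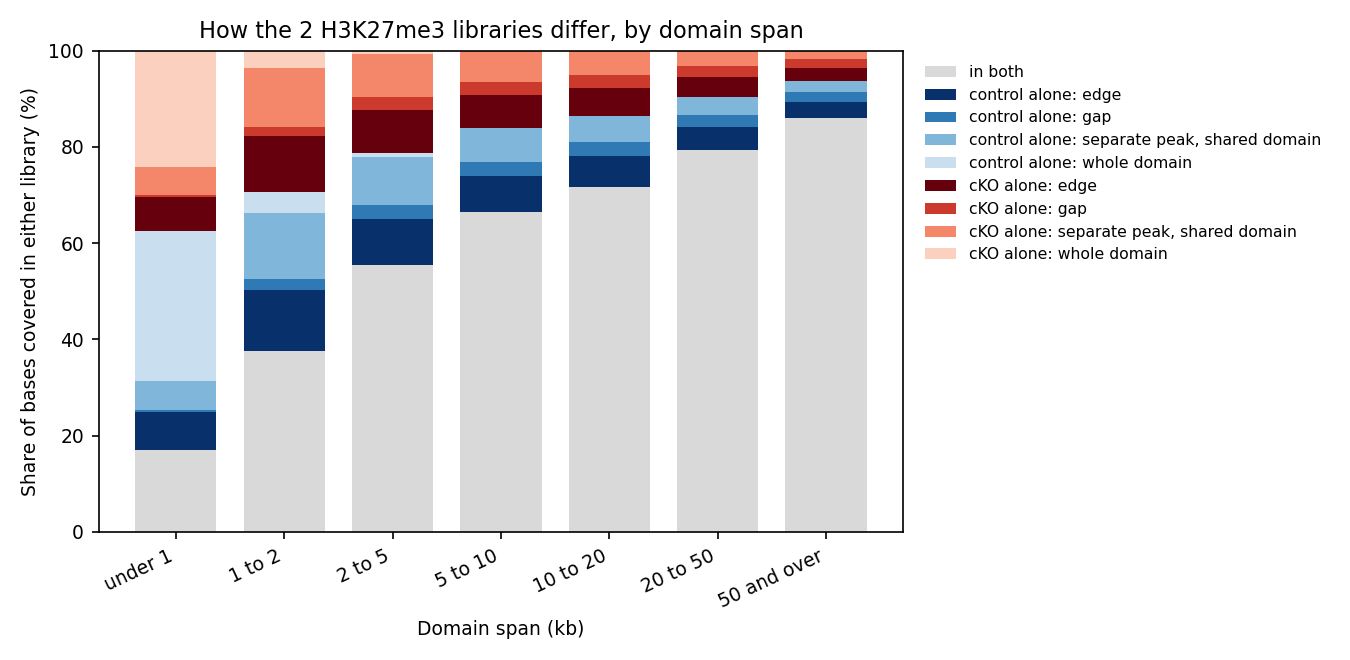
Bases covered in either H3K27me3 library, divided by kind (% of the union, y axis) in domains of rising span (kb, x axis): grey, covered in both; blues, control alone; reds, cKO alone. The grey part grows from 16.97% under 1 kb to 86.1% at 50 kb and over, and whole one-library domains are confined to the shorter classes plotted, up to 10 to 20 kb.

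The domains over the 4 Hox clusters were almost the same in both libraries. Hox genes set position along the body axis and are silent in retina. The bodies of the Hoxa, Hoxc and Hoxd clusters were covered over 100% of their length in both libraries, in 1 peak each: the Hoxc peak was 261754 bp wide in control and 270403 bp in cKO, Hoxa 191630 and 191136 bp, and Hoxd 138735 and 133634 bp. At Hoxb the control list had a break of 243 bp between a peak ending at chr11:96240473 and the next starting at 96240717, and the cKO list had none. That break alone makes the widest Hoxb peak 146225 bp in control and 236257 bp in cKO, although 99.9% of the cluster was covered in control. The 10 kb windows at the starts of all 39 Hox genes were fully covered in both libraries.

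Among the other wide domains, the one around Sox1, a neural progenitor transcription factor, had the largest decrease in bases. It spans chr8:12193352-12587698 and held 336419 bp in control and 324890 bp in cKO. The domain of Pax7, a muscle and neural crest paired-box gene, held 121340 and 114530 bp, and that of Barhl1, a homeobox gene of sensory neurons, 128782 and 122275 bp. One 121744 bp from Dlk1, an imprinted gene, held 24899 and 18543 bp. Upward, the domain at the start of Tcf7l2, a transcription factor of the Wnt pathway, held 22123 bp in control and 27668 bp in cKO, and one in Cpne4 held 28144 and 33976 bp. None of these 6 was past the fold, so each stayed a wide domain in both libraries.

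Among one-library domains, most of them single narrow peaks, those with the most covered bases lay in cKO. The largest was a region 43.6 kb from the start of Peli1, a ubiquitin ligase gene, at chr11:21036673-21047762: it held 0 bp in control and 8787 bp in 7 cKO peaks. No library of the series, H3K27ac and accessibility included, had another peak there. A region in Foxp2, a forkhead gene of neuronal development, at chr6:15139906-15150264 held 0 and 2833 bp, and a second Foxp2 domain at chr6:15391352-15415925, present in both, held 11340 and 16931 bp. Domains in cKO alone also lay in Reln (2529 bp), which encodes the secreted guidance protein reelin, and in Nav3 (2008 bp). The largest control-only domains were smaller, at 1549 bp in Skap1, 1483 bp in Il18 and 1365 bp near Ccdc90b.

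Among domains past the fold, small differences were more often downward in cKO and large ones more often upward. Past the fold, 1442 domains had at least 0.5 kb fewer covered bases in cKO and 1093 at least 0.5 kb more. Wide domains that changed by as many bases but less than 1.5-fold are left out of these counts. Among those left out are the domains of Sox1, Pax7 and Barhl1, lower in cKO, and of Tcf7l2 and Cpne4, higher. At 1 kb the counts were 389 and 317, at 2 kb 53 and 71, at 3 kb 10 and 25, and at 4 kb 1 and 10. The sizes were chosen after the values were seen. The 25 domains past the fold and higher by 3 kb or more lay on 11 chromosomes. They held 91633 bp in control and 210611 bp in cKO in sum. In 2 of them (8%) a gene start lay inside and 15 (60%) lay over 50 kb from any start. Among all 6689 domains spanning 5 kb or more these shares were 41.8% and 20.3%. The 25 had to pass the fold and the 6689 did not, so part of this contrast may follow from the rule. Of the 25, 15 (60%) had no H3K27ac in either library, against 56.3% of all domains spanning 5 kb or more, a share near that background. In 9 there was less H3K27ac in cKO and in 1 more, while 1841 of all those domains had less and 1075 more. With peaks of at least 500 bp alone, 36 domains were higher and 29 lower by 3 kb or more, so the excess of higher ones was then small. Of the 10 that were lower, 2 held a start and 6 lay over 50 kb away.

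The most changed of these domains differed in how much control already held. One 207.9 kb from Sel1l, at chr12:92057099-92073642, held 3 control peaks of 527 bp in all and 13 cKO peaks of 10540 bp. Inside Exoc6, an exocyst subunit gene, at chr19:37558401-37586928, the level went from 11197 to 22384 bp while H3K27ac went from 2676 to 1755 bp. A region 34.7 kb from Slc2a10, a glucose transporter gene, held 3513 bp in control and 10810 bp in cKO, one in Mvb12b 168 and 5192 bp, and one in Hdac9, a class II histone deacetylase, 7038 and 12342 bp. At chr3:34573435-34581172, 68.8 kb from Sox2, a core gene of retinal progenitors, the level was 1687 bp in control and 5132 bp in cKO. Alk, a receptor tyrosine kinase gene, had the largest loss past the fold: at chr17:71958719-71979558 it held 14 control peaks of 9844 bp and 8 cKO peaks of 4714 bp.

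**Figure D3:**
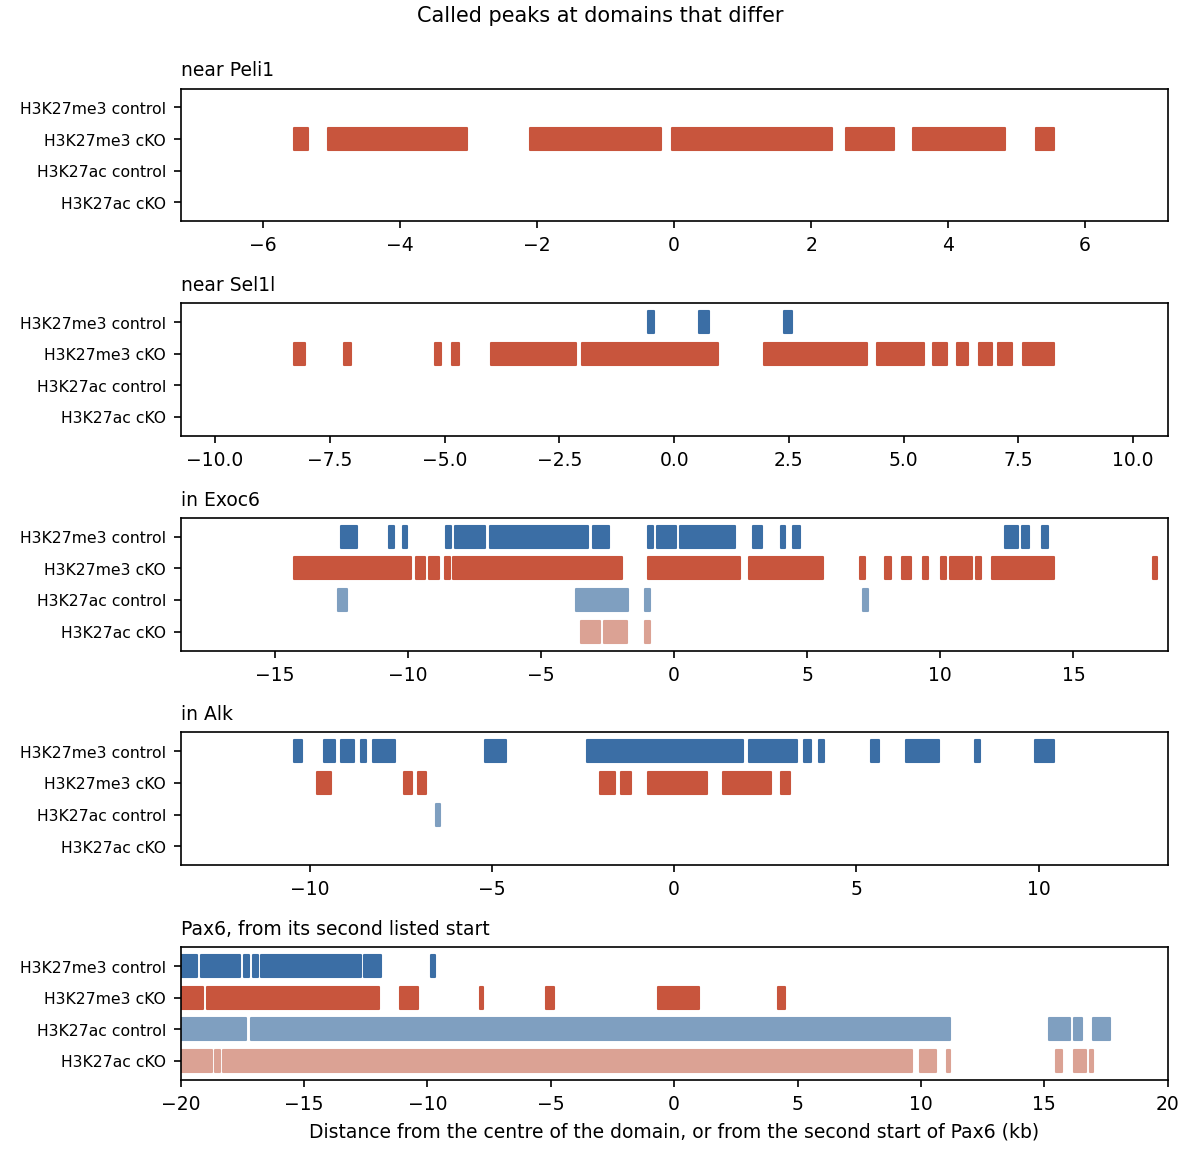
Called peaks (bars) of the 2 H3K27me3 and 2 H3K27ac libraries at 4 domains and around the second listed start of Pax6; the x axis is distance in kb from the domain's centre or that start. The region near Peli1 has 7 peaks in cKO and none in control, the one in Alk has 14 in control and 8 in cKO, and a 1666 bp peak lies at the second Pax6 start in cKO alone.

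Bases that differed lay further from gene starts than bases that did not. Within 1 kb of a protein-coding start lay 12.2% of shared bases, 5.07% of control-only bases and 5.31% of cKO-only bases. Outside genes and over 5 kb from a start lay 39.7%, 51.6% and 51.6%. Around 5652 marked starts with a known strand, the profile peaked in both libraries at 38.4% of bases covered, 700 bp into the gene. The difference, cKO minus control, ran from -1.04 to 0.313 percentage points and was negative in 175 of 200 bins of 200 bp. The upstream shoulder, 25.1% covered in control and 24.7% in cKO at 5100 bp before the start, was higher than the downstream one, at 14.5% and 14.0%.

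**Figure D4:**
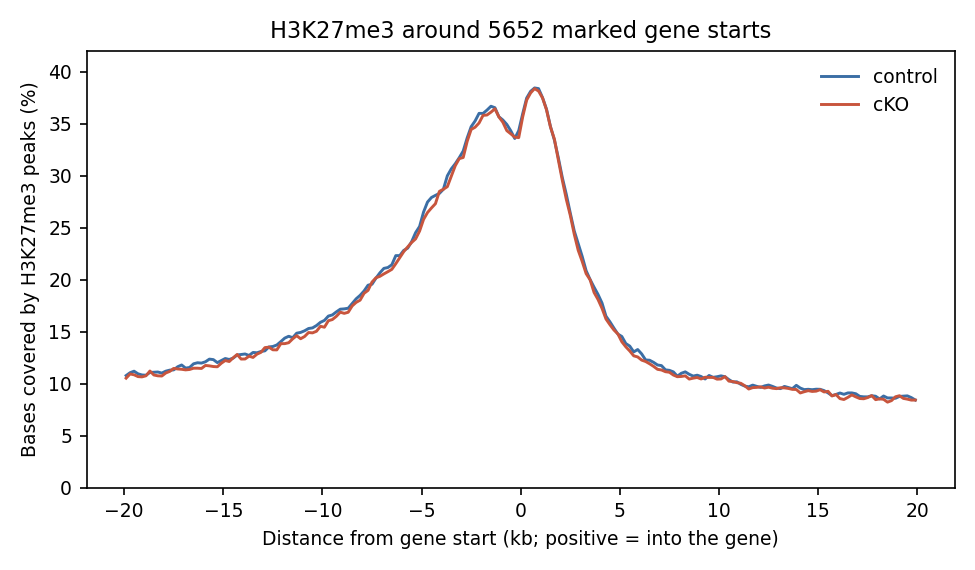
Share of bases covered by H3K27me3 peaks (%, y axis) against distance from the start (kb, x axis, positive into the gene), averaged over 5652 marked starts in 200 bp bins (blue, control; red, cKO). The lines nearly coincide, with a top of 38.4% in each at 700 bp into the gene.

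Gene by gene, the level of a gene is the covered bases in a 10 kb window around each listed start, or on both annotated ends where no strand was given. Of 20665 protein-coding genes, 7497 had 500 bp or more in at least 1 library. Past the fold, 433 of them (5.78%) were lower in cKO and 336 (4.48%) higher. In cKO 3854 genes (51.4%) had fewer covered bases and 3326 (44.4%) more. The median difference was -14 bp, on medians of 3020 and 3017 bp. By the mean of both libraries, 45.1% of genes under 500 bp were past the fold, 20.2% at 1 to 2 kb, 4.09% at 2 to 4 kb, 0.339% at 4 to 8 kb and none of the 1081 genes above 8 kb. This order follows in part from the rule, because a gene with a mean under 500 bp was kept only through the library where it was higher, and a window near full coverage in both cannot differ by 1.5-fold. The windows of 292 genes were covered throughout in both libraries. Casz1 itself, at chr4:148804366-148954893, held 1621 bp in control and 1887 bp in cKO, in a gene whose H3K27ac covered 11686 and 9971 bp. A peak list does not show the deletion.

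**Figure D5:**
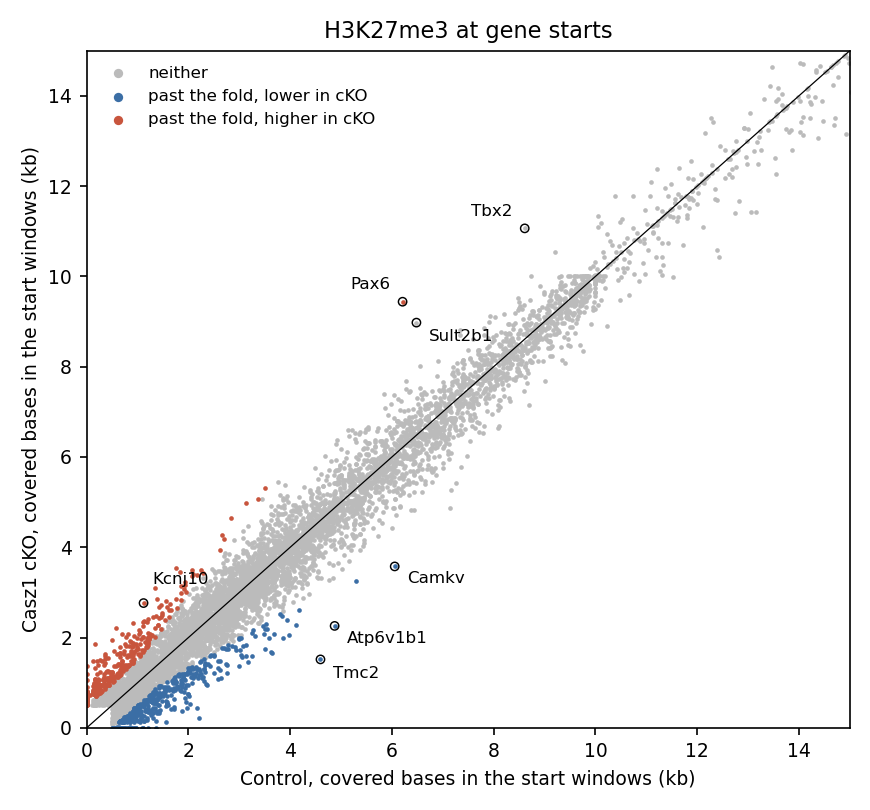
Covered bases (kb) in the start windows of 7497 protein-coding genes, control on the x axis and Casz1 cKO on the y axis; blue and red points are past the fold (at least 1.5-fold and 500 bp), circles mark named genes and the line is equality. The axes end at 15 kb, beyond which lie 77 genes, none past the fold; coloured points lie at low levels, with Pax6, Tmc2, Camkv and Atp6v1b1 farther out.

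Of 2899 marked long non-coding RNA genes, 7.24% were past the fold lower and 5.07% higher. Of 216 marked microRNA genes, 11 were lower and 6 higher. Pseudogenes, which had the mark less often (1115 of 9319), gave 11.03% and 6.46%. A peak within 1 kb of a start was called for 5119 protein-coding genes in both libraries, for 429 in control alone (7.24% of those with one) and for 378 in cKO alone (6.38%). Those starts were thinly covered, with medians of 175 and 164 bp against 1729 bp where both had a peak. Of the 429 and 378 genes, 270 and 243 still had peaks of both libraries in the wider window.

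Starts marked in 1 library also held fewer CG dinucleotides than starts marked in both. Over the 250 upstream bases, the median number of CG was 12 at the 3008 starts covered in both libraries, 6 at the 277 covered in control alone, 9 at the 226 covered in cKO alone and 9 at the 16574 covered in neither. Stretches with 10 or more made up 61.9%, 37.5%, 47.8% and 49.7%. Cxcl10, with 5, and Cntn5, with 24, both printed above, lie on either side of this. These are counts of letters in a window and say nothing of a bound factor.

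The largest decreases in the start windows were in genes of varied roles. Tmc2, a channel subunit of hair cells, went from 4596 bp in control to 1516 bp in cKO. No strand was given for Tmc2, so both annotated ends were counted, and its decrease lay around the end at chr2:130265189. Which end is the start is not known here. There a control peak at chr2:130262009-130263436, 1428 bp wide, met a cKO peak of 155 bp at its right edge. Atp6v1b1, a proton pump subunit, held 4874 and 2258 bp, and Camkv, a brain kinase-like protein, 6055 and 3576 bp. Dusp22, a phosphatase, held 2199 and 211 bp. At Rab6b, a neuronal Golgi trafficking gene, the level was 3615 bp in control and 1691 bp in cKO. There a control peak at chr9:103111722-103113079 crossed the start, whereas the cKO peaks broke off at 103110816 and began again at 103112306, and H3K27ac over the window was 3428 and 3364 bp. L3mbtl1, Rimkla, Shank1 and Nxpe5 differed by -2286 to -1973 bp, and L3mbtl1 and Shank1 were not past the fold. In windows of 4 kb the call remained at Rab6b and Nxpe5. It was lost at Tmc2 (-455 bp), Atp6v1b1 (-650 bp), Camkv (-269 bp), Rimkla (-748 bp) and Dusp22 (-107 bp). Their differences lay mainly further from the starts or, at Tmc2, from the annotated ends.

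Pax6 had the largest increase of any start window. It held 6210 bp in control and 9440 bp in cKO. At the first start a row of control peaks, the widest at chr2:105665742-105669777, was joined in cKO into 1 peak of 6956 bp at chr2:105663541-105670496. At the second start, further into the gene, only cKO had a peak, at chr2:105681806-105683471, and H3K27ac covered all 1666 bp of it in both libraries. H3K27ac over the Pax6 windows was 19813 and 19868 bp. In 4 kb windows Pax6 was 1725 bp higher and no longer past the fold. Tbx2, a T-box factor of dorsal retina, held 8611 and 11065 bp. A cKO peak at chr11:85833564-85839290 spanned 4 control peaks and the breaks between them. Sult2b1, a sterol sulfotransferase, held 6482 and 8977 bp, and neither it nor Tbx2 was past the fold. Sema3a, a repulsive axon guidance ligand, held 3366 and 5068 bp, and Spcs3, a signal peptidase subunit, 159 and 1848 bp. Gm4861, Gm6958, Prss29 and Gm47978 were higher by 1779 to 1849 bp. In 4 kb windows Gm4861 (565 bp), Gm6958 (841 bp) and Spcs3 (125 bp) were no longer past the fold. Sema3a, Prss29 and Gm47978 stayed past it, and Sult2b1 (2142 bp) came to pass it.

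Genes of retinal progenitors mostly had more covered bases in cKO. Of the 24 listed, 17 were marked, 15 with more and 2 with less, where 44.4% of all marked genes had more. The median difference was 494 bp against -14 bp over all genes. Without Pax6 the count was 14 of 16 and the median 464 bp. Past the fold were Pax6, Rax, a retinal homeobox gene (1626 and 2456 bp), and Sfrp2, a secreted Wnt modulator of the optic cup (425 and 1105 bp). Of all marked genes, 4.48% were past the fold higher. At Rax, control peaks of 887 and 575 bp met a single cKO peak of 1713 bp, and a further cKO peak of 477 bp began inside the end of the second. Not past the fold were Hes1, a Notch effector (4897 and 6294 bp), Sox9 (5721 and 6649 bp) and Notch1 (2423 and 3260 bp). Lhx2, a LIM homeobox gene, went the other way (13855 and 12812 bp). All 24 genes had H3K27ac in both libraries, with a summed change of -3.54%.

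In the neurogenic list, 6 of 12 marked genes had more and 3 less, with 1 past the fold each way. Dll3, a Notch ligand, held 932 and 430 bp. Atoh7, the ganglion cell competence factor, held 7411 and 7796 bp, while Neurod1, Olig2 and Otx2 were covered throughout in both. Over the Notch pathway family, 2 of 16 marked genes were past the fold lower, Dll3 and Heyl (2034 and 1288 bp), and none higher. Beside these counts, 5.78% of all marked genes were past the fold lower and 4.48% higher. In 4 kb windows Dll3 differed by 0 bp and Heyl stayed past the fold. The ligand gene Jag1 held 3800 and 5149 bp.

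Genes of cones mostly had fewer covered bases in cKO. Of the 13 listed genes on these chromosomes 9 were marked, 7 with less and 2 with more, where 51.4% of all marked genes had less. The median difference was -554 bp. Past the fold were Thrb, the thyroid hormone receptor that directs M cone opsin (1171 and 399 bp), and Kcne2, a potassium channel subunit (1989 and 956 bp). Of all marked genes, 5.78% were past the fold lower. At Thrb the peak at chr14:17662238-17663194 shrank at both edges to 399 bp. Gnat2, the cone transducin subunit, held 2891 and 2058 bp and Cnga3, a cone channel subunit, 4225 and 3671 bp. Guca1a, a guanylate cyclase activator, went the other way (9220 and 9671 bp). Among rod genes 5 of 19 were marked. Nrl, the leucine zipper factor that sets rod fate, held 1720 and 880 bp and was past the fold. Its control peak of 1354 bp downstream of the start was matched in cKO by pieces of 698 and 125 bp. In 4 kb windows Nrl differed by 0 bp, whereas Thrb and Kcne2 stayed past the fold. Gnat1, rod transducin, held 2561 and 2645 bp. Summed H3K27ac differed by -6.55% over the rod list and -5.76% over the cone list.

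The other retinal cell types had at most 2 genes past the fold in a list. Beside these counts, 5.78% of all marked genes were past the fold lower and 4.48% higher, and no list was tested against those shares. Many windows of their genes were covered throughout. Kcnj10, of Müller glia, held 1118 bp in control and 2764 bp in cKO, and its start peak grew from chr1:172341068-172341785 to chr1:172340766-172342192. It was the 1 Müller gene past the fold among 10 marked. Car14, a carbonic anhydrase of Müller glia, held 1896 and 2808 bp. Of 16 marked bipolar genes only Prkca, the kinase of rod bipolar cells, was past the fold (2734 and 1744 bp). Of 19 amacrine genes Neurod6 (359 and 897 bp) and Pax6 were. None of 20 ganglion cell genes or 11 horizontal cell genes was, and 11 and 3 of these windows were fully covered in both libraries. Among factors tied to the order in which retinal cells are born, none of 6 early ones, including Ikzf1 (7905 and 8072 bp), and none of 6 late ones, including Nfib (3995 and 4132 bp), was past the fold.

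Lists for the position of the tissue and for other cells had 1 gene past the fold upward and 1 downward. Over all marked genes the shares were 4.48% and 5.78%. Ciliary margin genes, which mark the rim of the retina, had 5 of 14 with more and 5 with less, and Sfrp2 alone was past the fold. Their summed H3K27ac differed by -13.0%. Of 4 marked dorsal genes and 4 ventral ones none was past the fold. In the dorsal list Tbx2 had the largest increase, and Bmp4 held 9693 and 8489 bp. The summed H3K27ac of the dorsal list differed by -14.1%. Of 10 marked vessel and pericyte genes, 6 of microglia, 6 of astrocytes and 6 of pigment epithelium none was past the fold. The microglial list had 5 genes with less and 1 with more, a median of -230.5 bp and 24521 bp in control against 22344 bp in cKO in sum. The vessel list had summed H3K27ac of 15530 bp in control and 12360 bp in cKO, in 7 and 9 of 19 genes, with no peak in either library at Tek, Tie1, Erg, Rgs5 and 6 others. Microglial genes had H3K27ac over 5268 and 5195 bp, in 6 and 5 of 14, with none at Ptprc, Cx3cr1, P2ry12 and 5 others. The astrocyte list had 5866 and 4840 bp, in 7 and 8 of 9 genes, with none at Pax2. Of 12 lens and cornea genes Krt12, the corneal keratin, was lower (1846 and 806 bp). Pigment epithelium genes had no H3K27ac peak at Rpe65, Best1, Lrat, Tyr and Oca2. The part of cell makeup in the H3K27me3 differences was not tested.

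Many windows of the developmental gene families were covered throughout in both libraries, and such windows could give no call. None of the marked genes of the Hox (39), Nkx (14), Lhx and Isl (12), Irx (6) and Dlx (6) families was past the fold, and 12 of the 14 Nkx windows were covered throughout in both libraries. The same held for 14 Sox, 10 POU, 9 Zic and Gli and 5 Gata genes. Of 34 neural bHLH genes 1 was past the fold lower, Heyl, and 3 higher, among them Neurod6 and Id4, an inhibitor of bHLH factors (244 and 836 bp). Of 9 Pax genes Pax6 alone was past the fold. Of 32 forkhead genes it was Foxo3, an effector of insulin signalling (211 and 1189 bp), and of 13 T-box genes Tbx10 (644 and 125 bp). Among 32 Wnt and Frizzled family genes, Fzd8, a Wnt receptor, was lower (2494 and 1223 bp) and Sfrp2 higher. The BMP, GDF and TGF genes had none past the fold among 22, with 14 lower, 8 higher and a median of -236 bp. Of 18 FGF genes, Fgf22 (2303 and 1040 bp) and Fgf1 (737 and 171 bp) were lower. Beside these counts, 5.78% of all marked genes were past the fold lower and 4.48% higher, with larger shares at low levels. With 4 kb windows Foxo3 differed by 0 bp, and Fzd8 (-250 bp), Fgf22 (-415 bp) and Id4 (362 bp) were no longer past the fold. Heyl, Neurod6, Tbx10, Sfrp2 and Fgf1 stayed past it.

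Families read out in mature neurons showed both directions. Of 46 marked guidance genes, 4 were lower: the netrin receptor Unc5c (3493 and 2081 bp), the semaphorin receptor Nrp1 (2857 and 1810 bp), Sema3g (632 and 0 bp) and the ephrin receptor Epha3 (794 and 210 bp). Sema3a and the Slit receptor Robo1 (1472 and 2489 bp) were higher. With 4 kb windows Sema3g differed by 0 bp, and Unc5c (-332 bp) and Nrp1 (-156 bp) were no longer past the fold. Epha3, Sema3a and Robo1 stayed past it. Clustered protocadherins, adhesion molecules chosen promoter by promoter in single neurons, had 6 of 31 lower and none higher, beside 5.78% and 4.48% of all marked genes, with a median of -392 bp. Pcdhgc5 held 2755 and 1223 bp and Pcdhga7 2312 and 1313 bp. Their windows overlap, so the 6 are not separate measurements. With 4 kb windows Pcdhgc5 (-247 bp), Pcdhga7 (-416 bp), Pcdhgc3 (-275 bp) and Pcdhgc4 (-373 bp) were no longer past the fold. Of 10 GABA and glycine receptor genes, 8 had less and 2 more, none past the fold, and none of 21 glutamate receptor genes was. Of 72 potassium channel genes, 2 were lower and 3 higher, and Cacng4, a calcium channel family subunit (1854 and 3133 bp), was 1 of 2 higher among 22 calcium channel genes.

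Calls were also made in repeated gene clusters and in the windows of constantly active genes. Of 169 marked zinc finger genes with KRAB-type symbols, 13 were lower and 17 higher. Of 83 marked olfactory receptor genes, 13 were lower and 5 higher, with a median of -213 bp. Ribosomal protein genes, which are active in all cells, had 5 of 22 higher and none lower, beside 4.48% and 5.78% of all marked genes. These were at low levels, where 20.2% of genes with a mean of 1 to 2 kb were past the fold in either direction. Rpl13a held 904 and 1881 bp and Rpl21 1074 and 1963 bp. Rpl13a, Rpl21, Rpl34 and Rpl24 had 0 bp within 1 kb of a listed start or end in either library. With 4 kb windows Rpl13a and Rpl24 differed by 0 bp, and Rpl21 (209 bp) and Rpl34 (159 bp) were no longer past the fold. Of 151 solute carrier genes 6 were lower and 4 higher. Keratins had 3 of 24 lower and 1 higher, and 28 collagens had Col9a3 lower (1893 and 1129 bp). The 2 replication histone genes past the fold of 7, H2bc13 and H2ac13 (175 and 779 bp each), share a window, and with 4 kb windows both differed by 0 bp. Near-identical copies and pseudogenes share reads in these families, so single members are uncertain. Genes of the Polycomb complexes (12 marked), the NuRD remodelling complex (3) and a housekeeping list (4) had none past the fold.

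Other readouts at the bases that differ were then compared. H3K27ac peaks of the control library lay over 5.56% of shared H3K27me3 bases, 2.65% of control-only bases and 3.23% of cKO-only bases. With the cKO H3K27ac library the values were 5.08%, 2.46% and 2.95%. Bases of cKO-only whole domains had 4.01% and 3.56%. So both kinds of unshared base were less often acetylated than shared ones in either library. Less H3K27ac in cKO was the more frequent direction at genes past the fold either way: of genes lower in H3K27me3 with any H3K27ac, 59.5% had less H3K27ac in cKO, of those higher 66.5%, and of the rest 64.1%. Accessibility (ATAC) came from sorted cells of cultured explants labelled postnatal day 2, so both preparation and labelled age differ from the postnatal day 0 H3K27me3 libraries. Its 4 lists covered 1.31 to 10.98% of shared bases and 0.726 to 4.83% of control-only bases.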

How the data were processed

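H3K27me3 chromatin immunoprecipitation was sequenced from 1 control and 1 Casz1 cKO retina sample. The authors deposited called peaks as chromosome, start and end; per the submitters' processing notes Bowtie2, deepTools and MACS2 were used with mm10, and none of the sources used here gives thresholds. The deposited values used are positions in bp; heights and read counts are not used here, so depth and its precision are unknown. Chromosomes 1 to 19 were analysed; chromosome X peaks (24.7% of control, 24.2% of cKO) and 60 and 79 peaks on other sequences were left out. Peaks of both lists were stitched at 3 kb into domains, and bases were counted in 10 kb start windows (RefSeq GRCm38.p6; strand for 79.6% of protein-coding genes). Python 3.11.15, numpy 2.4.6 and pandas 2.3.3 were used, and the counting was checked on simulated data. No test was possible with 1 library per group. The rule for names took Casz1, the Hox clusters, in each direction the 10 genes and 10 shared or one-library domains that differed most, and up to 4 members per list and direction past the fold; others named were chosen after their values were seen. The comparison, lists and families were chosen with earlier results of these data known. Alternatives were stitching, window, overlap, minimum width, list length and chromosome X. Some named items that the rule took are not reported here.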

Additional observations from a re-analysis of the deposited data

How the results depend on the processing

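No paired analysis was possible because each group holds 1 library, and for the same reason no library could be left out. The difference in covered bases was -1.61% with lists cut to equal length by width, -1.55% with peaks of at least 500 bp and -3.30% with chromosome X added. With peaks of at least 500 bp, unshared peaks fell to 4964 in control and 4047 in cKO, one-library domains to 1688 and 1294, and edges made up 48.2% and 50.5% of one-library bases. The edge shares were 42.1% and 43.3% after merging peaks within 200 bp, and 40.3% and 40.5% at equal list length. Stitching at 1 kb gave 7619 control-only and 6104 cKO-only domains. Domains past the fold and lower by 3 kb or more numbered 4 with 1 kb stitching and 29 with peaks of at least 500 bp. Those past the fold and higher by 3 kb or more numbered 15 and 36. Genes past the fold numbered 229 lower and 182 higher with 4 kb windows, and 738 and 576 with peaks of at least 500 bp. Of 89 named genes, 35 kept their call with 4 kb windows, 39 lost it, and Zfp317 (-173 bp), Olfr1340 (-91 bp) and Krt27 (-259 bp) reversed. Fewer bases counted is the construction of the shorter windows; for the other changes the cause was not tested. The progenitor and cone counts, and domains higher by 3 kb, were tried under alternatives chosen after seeing the data. The progenitor count was 14 or 15 and the cone count 6 to 8 under each alternative tried.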

Other observations

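Chromosome X, left out of the comparison, held 22944 control peaks over 15.9 Mb and 21674 cKO peaks over 14.4 Mb. None of the sources used here gives the sex of the animals.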
